A study of Mus musculus with 119 samples.

Results

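The comparison described here set macrophages that lacked ELK1 and ELK4 against wild-type (WT) macrophages after 2 h of LPS. It used the 4 *Elk1*-/-*Elk4*-/- libraries (dKO) and the 4 WT libraries labelled with that time, 8 of the 119 RNA-seq libraries in the table, chosen by their labels and not by any measured value. All were bone marrow-derived macrophages (BMDMs), macrophages grown from mouse femoral bone marrow in L-cell conditioned medium, of the strain C57BL/6(NIMR), and all 8 cultures had received LPS, the bacterial ligand of the receptor TLR4, at 100 ng/ml. The same genotypes were also sampled without LPS (6 WT and 4 dKO libraries), at 0.5 h (6 and 4) and at 1 h (6 and 4), and BMDMs with a kinase-dead TPL-2, *Map3k8* D270A, gave 6 libraries at each time. The ages and the sexes of the mice are not used here, and the deletions were carried by every cell of the dKO mice rather than by macrophages alone.

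Each WT library is labelled as part of one experiment and each dKO library as part of another, so genotype and experiment cannot be told apart in any comparison below. The methods call the libraries biological replicates, but neither they nor the labels say whether each came from a separate mouse, and the p values measure the spread between these libraries. In bulk RNA, fewer cells of a type and less RNA per cell cannot be told apart either. The values are normalized and on a log2 scale, the table does not give the reads behind each library, and every difference is given as dKO minus WT on that scale.

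ELK1 and ELK4 belong, with ELK3, to the ternary complex factors (TCFs), a subfamily of ETS transcription factors. They bind DNA beside serum response factor (SRF), which recognises the CArG box, and ERK phosphorylates their activation domains. In macrophages LPS activates ERK through the kinase TPL-2, and TCF targets such as *Egr1* and the *Fos* family are among the immediate early genes, which are transcribed without new protein synthesis.

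The targeted genes were low in every dKO library. *Elk1* stood at 9.04, 9.07, 9.05, and 9.04 in WT replicates 4 to 7 and at 6.33, 6.26, 6.17, and 6.41 in dKO replicates 1 to 4, an order of libraries kept in every list of values below. *Elk4* stood at 8.07, 8.49, 8.09, and 8.07 in WT and at 5.66, 5.83, 5.53, and 5.80 in dKO. Neither gene had overlapping groups, and the differences were -2.76 for *Elk1* (SE 0.05, adjusted p = 2.24e-42) and -2.47 for *Elk4* (SE 0.08, adjusted p = 2.4e-31). The third TCF, *Elk3*, differed by -0.34 (adjusted p = 2.37e-11), and *Srf*, the DNA-binding partner, differed by -0.28 (adjusted p = 1.71e-05), both without overlap between the groups. *Elk3* had not differed without LPS (-0.00, adjusted p = 0.925), while *Srf* was already slightly lower (-0.19, adjusted p = 0.000996).

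The sequences next to some of the genes described below show the letters that these factors and the factors downstream of them are known to recognise. The *Srf* and *Zfp36* promoters are shown because both hold a CArG box and, further upstream, the ETS letters CCGGAAG. Those of *Sphk1* and *Olr1* are shown because these genes were lower in dKO than in WT cells at 2 h and hold the AP-1 letters TGANTCA, and those of *Ifit3* and *Tgtp1* because these interferon-stimulated genes were higher and hold the core of the interferon-stimulated response element (ISRE), GAAA and GAAA with any 2 bases between them. Each line is the RefSeq promoter up to the base before the transcription start in the build GRCm38.p6, written 5′ to 3′ on the strand of the gene. Capitals mark every match to these motifs on either strand, and no capital letter belongs to more than one match.
Srf, chr17:46556163-46556312, minus strand: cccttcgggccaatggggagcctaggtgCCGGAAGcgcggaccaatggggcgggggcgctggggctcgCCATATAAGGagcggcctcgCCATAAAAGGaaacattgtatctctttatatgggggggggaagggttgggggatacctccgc
Zfp36, chr7:28379229-28379378, minus strand: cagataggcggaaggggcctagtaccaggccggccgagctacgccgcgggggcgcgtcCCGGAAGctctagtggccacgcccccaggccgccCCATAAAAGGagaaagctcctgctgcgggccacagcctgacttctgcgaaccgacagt
Sphk1, chr11:116531687-116531836, plus strand: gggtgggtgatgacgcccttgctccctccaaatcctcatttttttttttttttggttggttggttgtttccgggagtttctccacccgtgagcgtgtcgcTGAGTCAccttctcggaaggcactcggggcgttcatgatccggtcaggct
Olr1, chr6:129507166-129507315, minus strand: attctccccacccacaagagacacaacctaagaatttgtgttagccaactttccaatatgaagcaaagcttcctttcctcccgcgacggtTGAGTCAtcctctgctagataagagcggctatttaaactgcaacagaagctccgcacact
Ifit3, chr19:34583349-34583528, plus strand: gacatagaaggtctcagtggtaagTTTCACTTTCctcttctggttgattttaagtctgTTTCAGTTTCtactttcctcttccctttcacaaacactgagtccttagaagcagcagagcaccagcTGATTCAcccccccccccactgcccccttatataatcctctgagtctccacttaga
Tgtp1, chr11:48992247-48992396, minus strand: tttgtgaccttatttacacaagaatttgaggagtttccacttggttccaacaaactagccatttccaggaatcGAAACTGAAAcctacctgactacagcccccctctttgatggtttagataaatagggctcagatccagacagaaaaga

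Such matches were counted in whole promoters, from 250 bases before to 50 after a start. Only genes in the set of RefSeq promoters used here could be searched. These were 77 of the 114 genes called lower at 2 h and 96 of the 134 called higher (rule in the next paragraph). The other called genes were not searched, so the counts are incomplete. Among all 27025 genes with a promoter in that set, 3.99% held the ISRE core, 8.97% held TGANTCA, 9.93% held CCGGAAG, and 1.81% held a CArG box on either strand. The genes called higher held the ISRE core in 19 of 96 cases, or 19.8%, and the interferon-stimulated genes described below in 22 of 38. The letters TGANTCA were held by 9 of the 77 genes called lower, or 11.7%, by 12 of the 96 called higher, or 12.5%, and by 9 of the 38 interferon-stimulated genes, or 23.7%. The genes called lower held a CArG box in 1 case and CCGGAAG in 3, those called higher in 1 and 5, and the immediate early genes described below in 2 of 12 each, or 16.7%. Of the 9153 tested genes with a promoter, 6.31% held TGANTCA, 1.47% a CArG box, 20.9% CCGGAAG, and 3.89% the ISRE core. These counts describe letters in a short window and were not tested.

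A gene was called when limma's adjusted p was below 0.05 and the difference was at least 1, which is 2-fold, and 11884 genes were tested. At 2 h 114 genes, 0.959% of those tested, were lower in dKO BMDMs, and 134 genes, 1.13%, were higher. The adjusted p alone was passed by 2750 genes that were lower, 23.1% of those tested, and 3291 that were higher, 27.7%, so that most differences past the test were small, and the median difference of all genes was 0.02. These shares are the background of every list count below. The first principal component of the 8 libraries held 69.8% of the variance and separated the genotypes. The next held 9.42% and set WT replicate 7 apart from the other WT libraries, and without it 143 genes were called lower and 123 higher. WT replicates 5 and 6 had the highest values of the ribosomal RNA gene *Rn45s*, 19.81 and 17.53 against 14.45 to 15.79 in the other libraries. The gene was called lower in dKO with overlapping groups (-2.17, adjusted p = 0.0385), but not without WT replicate 5 or 6 or dKO replicate 1, 2, or 3 (adjusted p from 0.0558 to 0.266), with a difference of -1.26 without WT replicate 5 and of -2.02 to -2.23 without the others. The small RNA gene *Rn4.5s*, which is not a ribosomal RNA gene, was called lower as well (-1.09, adjusted p = 1.01e-05). Without WT replicates 5 and 6 together 87 genes were called lower and 150 higher.

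**Figure D1:**
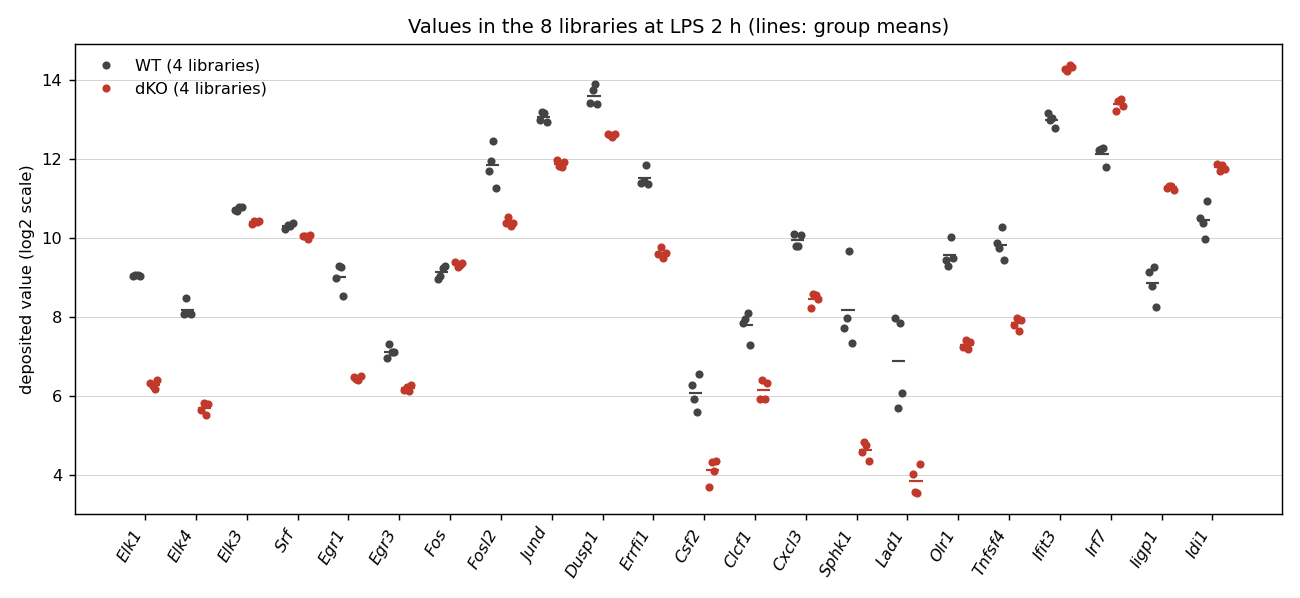
Each point is one library at 2 h of LPS on the log2 scale of the deposited values, in WT (dark) and dKO (red) BMDMs, with lines at the group means. *Egr1*, *Csf2*, *Sphk1*, and *Lad1* had no overlap between groups, with dKO below WT, whereas the 4 dKO values of *Ifit3* and *Irf7* lay above all WT values and those of *Fos* overlapped.

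The immediate early genes that TCFs and SRF are known to drive fell in part. Of 17 tested members of that list, 2 were called lower, *Egr1* and *Arc*, and none higher, while 10 passed the adjusted p with lower values and none with higher values, beside 0.959% of all genes called lower and 23.1% lower past the adjusted p. The list's median difference was -0.34. *Egr1*, a zinc-finger transcription factor, stood at 8.99, 9.28, 9.27, and 8.53 in WT and at 6.49, 6.44, 6.40, and 6.52 in dKO. No dKO value came within 2 log2 units of a WT value, and the difference was -2.55 (SE 0.16, adjusted p = 2.06e-18). *Arc*, which encodes a capsid-like protein known from neurons, stood at 5.29, 5.56, 5.54, and 4.25 in WT and at 3.96, 3.92, 4.13, and 4.10 in dKO. The groups of *Arc* were separated only by a small gap under WT replicate 7, the difference was -1.13 (adjusted p = 3.79e-06), and it was no longer called without WT replicate 5 (-0.997), which left 1 called member.

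Other immediate early genes differed less. *Dusp1*, a phosphatase that inactivates p38 and other MAP kinases, was at 13.38 to 13.88 in WT and at 12.54 to 12.63 in dKO, and its difference of -0.996 (adjusted p = 1.86e-11) fell just short of the size needed for a call, which it reached without WT replicate 4 (-1.06) or 7 (-1.07), among other alternatives. *Egr3* differed by -0.93 (adjusted p = 5.33e-06) without overlap. *Fos*, named here after its values were seen together with *Egr2*, *Egr3*, *Ifnb1*, *Il6*, and *Il10*, was at 8.95, 9.04, 9.23, and 9.30 in WT and at 9.38, 9.26, 9.32, and 9.36 in dKO. The *Fos* groups overlapped and its difference of 0.20 did not pass the test (adjusted p = 0.147), and neither did those of *Egr2* (-0.04, adjusted p = 0.869), *Mcl1*, a survival factor (-0.02, adjusted p = 0.782), and *Zfp36*, which encodes an mRNA-decay protein (-0.09, adjusted p = 0.507). These values are for 2 h only, and those of *Fos* at earlier times are not given here. At 1 h the list's median difference was -0.44. There 13 of the 17 tested members were lower past the adjusted p and 1 was higher, beside 3108 and 3236 of all 11884 genes.

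Among the partners that make up AP-1, 2 of 16 tested members were called lower. The adjusted p was passed by 9 with lower values, beside 23.1% of all genes, and by 4 with higher values, beside 27.7%, and the median was -0.34. *Fosl2*, which encodes FRA2, was at 11.68, 11.94, 12.45, and 11.27 in WT and at 10.37, 10.54, 10.29, and 10.37 in dKO. It fell by 1.44 in dKO (SE 0.14, adjusted p = 1.13e-12), and *Jund* fell by 1.18 (SE 0.08, adjusted p = 4.45e-18), both without overlap. *Junb* was lower by less (-0.64, adjusted p = 1.04e-07), *Jun* was higher (0.54, adjusted p = 2.2e-05), and *Atf3* overlapped (0.02, adjusted p = 0.838).

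The ERK feedback list holds inhibitors of the pathways of ERK and of other MAP kinases, which limit the signal that induced them. *Dusp1* is counted in it as well as among the immediate early genes. Of its 16 tested members 1 was called lower and 9 passed the adjusted p with lower values, 2 with higher values, with a median of -0.39. The called member was *Errfi1*, which encodes an inhibitor of the EGF receptor. It was at 11.39, 11.43, 11.84, and 11.37 in WT and at 9.58, 9.78, 9.49, and 9.62 in dKO, a difference of -1.89 (SE 0.19, adjusted p = 6.65e-12). *Dusp7*, an ERK phosphatase, was lower by less (-0.57, adjusted p = 1.57e-08). The SRF cytoskeletal genes, which are mostly served by other SRF partners, had no called member among 20 tested: 3 passed the adjusted p with lower and 9 with higher values, among them *Actb* (0.30, adjusted p = 0.000876) and *Actg1* (0.16, adjusted p = 0.00105), while *Flna*, a filamin, did not pass (0.08, adjusted p = 0.523).

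**Figure D2:**
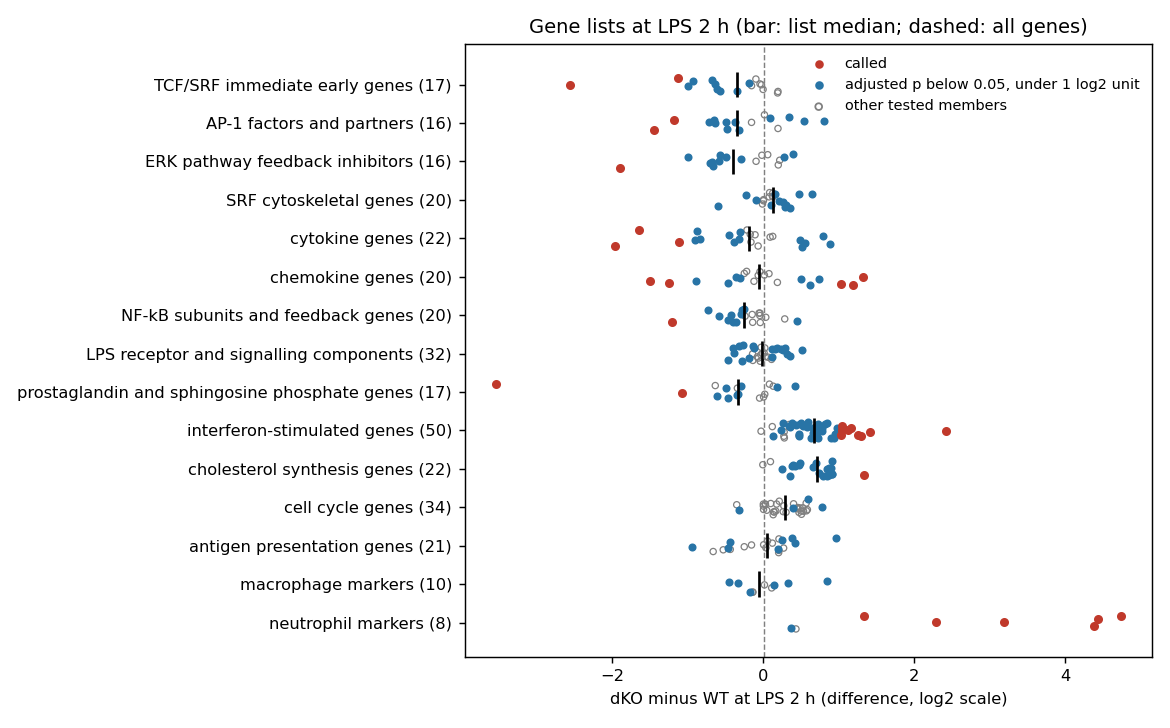
Each point is a tested member of a gene list, placed by its difference between dKO and WT BMDMs at 2 h of LPS on the log2 scale, with the number of tested members in brackets, bars at the list medians (none for the neutrophil markers) and a dashed line at the median of all genes. The interferon-stimulated and cholesterol synthesis lists lie to the right, with medians of 0.68 and 0.72, and the immediate early and ERK feedback lists lie to the left, with medians of -0.34 and -0.39.

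Of 22 tested cytokine genes 3 were called lower, *Csf2*, *Clcf1*, and *Lif*, and none higher, beside 0.959% and 1.13% of all genes. The adjusted p was passed by 10 with lower and 5 with higher values, beside 23.1% and 27.7% of all genes (median -0.19). *Csf2*, which encodes the growth factor GM-CSF, was at 6.27, 5.94, 5.59, and 6.55 in WT and at 3.71, 4.33, 4.12, and 4.35 in dKO, a difference of -1.96 (SE 0.25, adjusted p = 2.95e-09) with groups more than 1 log2 unit apart. *Clcf1* differed by -1.64 (SE 0.20, adjusted p = 1.31e-09) and *Lif* by -1.11 (SE 0.15, adjusted p = 3.57e-08), both encoding ligands of gp130 receptors and both without overlap. *Il6*, whose product also signals through gp130, went the other way, at 8.89, 8.44, 8.32, and 8.47 in WT and at 9.53, 9.51, 9.24, and 9.39 in dKO (0.89, adjusted p = 0.0018), and it was called only when WT replicate 4 was left out (1.01).

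The pyrogenic cytokines and interferon-β were shifted by less than 2-fold. *Tnf* differed by -0.39 (adjusted p = 0.00467), *Il1a* by -0.89 (adjusted p = 0.000749), and *Il1b* by -0.88 (adjusted p = 0.000201), each without overlap. *Ifnb1*, the gene of interferon-β, was at 8.43, 8.19, 7.81, and 8.51 in WT and at 8.86, 8.86, 9.11, and 9.27 in dKO. All 4 dKO values were above all WT values, by 0.79 on average (SE 0.16, adjusted p = 3.17e-05). The anti-inflammatory cytokine gene *Il10* differed by -0.45 (adjusted p = 0.0117), *Tgfb1* differed by -0.32 with overlap (adjusted p = 0.00108), and *Il1rn*, the interleukin-1 receptor antagonist, did not pass (-0.16, adjusted p = 0.481).

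Among 20 tested chemokine genes 2 were called lower and 3 higher, and 6 in each direction passed the adjusted p (median -0.05). *Cxcl3*, a ligand of the neutrophil receptor CXCR2, was at 10.11, 9.79, 9.80, and 10.07 in WT and at 8.24, 8.57, 8.56, and 8.46 in dKO, and fell by 1.49 (SE 0.18, adjusted p = 8.71e-10). *Ccl22*, a ligand of CCR4, fell by 1.24 (SE 0.19, adjusted p = 4.48e-07). The called increases included ligands of CXCR3 that interferon induces: *Cxcl9* was at 8.80, 8.67, 8.45, and 7.84 in WT and at 9.87, 9.78, 9.36, and 10.03 in dKO (1.32, SE 0.39, adjusted p = 0.00401), and *Cxcl11* was 1.19 higher (SE 0.35, adjusted p = 0.00396) although dKO replicate 4 (8.90) lay inside the WT range, and it was not called without WT replicate 7 (0.99) or dKO replicate 1 (0.93). *Ccl8* was 1.03 higher (SE 0.28, adjusted p = 0.00154) and was not called without WT replicate 4 (0.99), dKO replicate 2 (0.97), or dKO replicate 3 (0.82). The abundant *Ccl4* and *Ccl6* did not pass, at -0.04 and -0.25, and *Ccl9* was lower by less than 2-fold (-0.30, adjusted p = 0.00905).

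*Sphk1*, the kinase that makes sphingosine 1-phosphate, had the largest decrease of the genes tested. It was at 7.72, 7.97, 9.66, and 7.34 in WT and at 4.59, 4.84, 4.76, and 4.36 in dKO, with more than 2 log2 units between the groups, and differed by -3.54 (SE 0.24, adjusted p = 1.09e-17), or -3.04 without WT replicate 6. *Lad1*, which encodes the filament protein ladinin, was at 7.97, 5.70, 7.84, and 6.07 in WT and at 4.03, 3.57, 3.55, and 4.29 in dKO. The WT values of *Lad1* were spread over more than 2 log2 units and still lay above all dKO values, for a difference of -3.04 (SE 0.28, adjusted p = 5.9e-13).

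*Olr1*, a scavenger receptor for oxidized lipoproteins, was at 9.44, 9.30, 10.03, and 9.48 in WT and at 7.25, 7.41, 7.18, and 7.36 in dKO, and fell by 2.26 (SE 0.20, adjusted p = 2.7e-13). *Tnfsf4*, the OX40 ligand, fell by 1.99 (SE 0.22, adjusted p = 1.64e-10), and *Lrrc32*, the gene of a protein that holds latent TGF-β at the surface, fell by 2.72 (SE 0.24, adjusted p = 1.04e-13). The groups of all 3 genes were apart. *Mt2*, a metallothionein, was at 10.51 to 11.65 in WT and at 8.56 to 9.07 in dKO (-2.32, adjusted p = 6.41e-07). *Ptger2*, a prostaglandin E2 receptor, fell by 1.07 (SE 0.12, adjusted p = 2.76e-10) but was not called without dKO replicate 4 (-0.997), and the list of 17 prostaglandin and sphingosine phosphate genes had 2 called members, both lower, with 8 lower and 2 higher members past the adjusted p (median -0.33).

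Another pair among the 12 largest decreases may share reads with near-identical copies and is uncertain for that reason. *Rps15a-ps6*, a ribosomal protein pseudogene, was at 9.81 to 10.06 in WT and at 7.76 to 8.32 in dKO (-1.95, adjusted p = 8.88e-11). *Amd2*, a copy of an enzyme gene of polyamine synthesis, was at 6.65, 7.80, 9.44, and 7.05 in WT and at 5.54, 5.45, 5.57, and 5.69 in dKO (-2.17, SE 0.87, adjusted p = 0.0323), and it lost its call without WT replicate 5 or 6 or without dKO replicate 1, 2, or 3, where the adjusted p ran from 0.0535 to 0.151. Components and feedback genes of NF-κB signalling differed mostly by less than 2-fold. Their list also holds the cytokine signalling inhibitors *Socs1* and *Socs3*. Of 20 tested genes 10 passed the adjusted p with lower values and 1 with higher values (median -0.25), and the only call was *Nfkbid*, which encodes the nuclear inhibitor IκBNS (-1.21, SE 0.15, adjusted p = 2.59e-09). *Nfkbia*, the gene of IκBα, was lower by less (-0.59, adjusted p = 4.01e-09), and *Tnfaip3* (-0.24, adjusted p = 0.168) and *Nfkbiz* (-0.14, adjusted p = 0.355) did not pass. No component of LPS recognition and signalling was called among 32, with 9 lower and 10 higher past the adjusted p, and *Cd14* differed by -0.14 (adjusted p = 0.191).

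Interferon-stimulated genes, which encode antiviral effectors and their regulators, were higher as a group. Of 50 tested genes 9 were called higher and none lower, and 43 passed the adjusted p with higher values and none with lower values, beside 27.7% of all genes. Their median difference was 0.68, beside 0.02 over all genes, and without WT replicate 7 the counts were 6 called and 34 past the adjusted p. *Ifit3* was at 13.15, 12.99, 13.04, and 12.77 in WT and at 14.27, 14.22, 14.36, and 14.32 in dKO, a difference of 1.30 (SE 0.19, adjusted p = 8.14e-08). *Irf7*, the transcription factor that amplifies interferon-α production, was at 12.21, 12.25, 12.26, and 11.79 in WT and at 13.21, 13.46, 13.52, and 13.34 in dKO (1.26, SE 0.20, adjusted p = 8.51e-07). WT replicate 7 was the lowest library for both genes, and neither gene had overlapping groups.

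*Iigp1*, an interferon-inducible GTPase, rose most among them, from 9.13, 8.78, 9.26, and 8.26 in WT to 11.27, 11.31, 11.32, and 11.22 in dKO (2.42, SE 0.41, adjusted p = 2.28e-06). *Ifi44* (1.41, adjusted p = 1.78e-05), *Isg20*, an exonuclease (1.17, adjusted p = 3.28e-08), and *Ifit2* (1.12, adjusted p = 1.06e-05) were called as well. The 3 uncalled members with the highest mean over the 62 libraries of the fit were higher too: *Rsad2*, which encodes viperin, by 0.85 (adjusted p = 2.75e-06), *Parp14* by 0.48 (adjusted p = 0.00131), and *Slfn5* by 0.48 (adjusted p = 0.000225), each without overlap. These genes were higher before LPS too. Without LPS their median difference was 0.81, beside 0.01 over all genes. There 47 of 50 passed the adjusted p with higher values, beside 27.2% of all genes. *Irf7*, *Ifit2*, *Ifit3*, and *Ifi44* differed by 1.54, 1.62, 1.33, and 1.64.

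Cholesterol synthesis genes, which the factor SREBP2 is known to switch on when sterols are low, were also higher as a group: 20 of 22 passed the adjusted p with higher values and none with lower values, beside 27.7% and 23.1% of all genes. The median was 0.72, and 1 was called, or 2 without WT replicate 7, beside 1.13% of all genes. *Idi1*, an isomerase of the pathway, was at 10.51, 10.38, 9.97, and 10.93 in WT and at 11.86, 11.70, 11.84, and 11.73 in dKO (1.33, SE 0.16, adjusted p = 7.41e-10). *Srebf2* itself, the gene of SREBP2, was at 12.33 to 12.63 in WT and 12.39 to 12.62 in dKO, with full overlap (-0.00, adjusted p = 0.976). Its target *Insig1* was higher without overlap (0.43, adjusted p = 0.000185). The list's median without LPS was 0.44, beside 0.01 over all genes, with 19 of 22 higher past the adjusted p, beside 27.2% of all genes. No member of the antigen presentation list (21 tested) or the cell cycle list (34 tested) was called.

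The 3 largest increases were those of *Ngp*, *S100a9*, and *Ltf*, all genes of neutrophil granule or calprotectin proteins, and they also differed before LPS. *Ngp*, a granule protein, was at 3.88, 4.02, 3.87, and 5.15 in WT and at 9.10, 8.85, 9.01, and 8.92 in dKO, a difference of 4.74 (SE 0.28, adjusted p = 5.13e-20). *S100a9*, a subunit of calprotectin, was at 4.57, 4.57, 4.65, and 6.44 in WT and at 9.53, 9.41, 9.75, and 9.24 in dKO (4.43, SE 0.43, adjusted p = 1.78e-12). *Ltf*, or lactoferrin, was at 3.56, 3.89, 3.52, and 4.68 in WT and at 8.36, 8.12, 8.41, and 8.28 in dKO (4.38, SE 0.25, adjusted p = 1.03e-20). For all 3 genes WT replicate 7 was the highest WT library, and every dKO library was more than 2 log2 units above it. *S100a8* was 3.18 higher (adjusted p = 7.12e-17). *Camp*, a cathelicidin gene, had group means of 2.30 in WT and 4.59 in dKO, and *Retnlg* of 1.96 and 3.29.

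All 12 genes of the neutrophil marker list had 4 dKO values above all 4 WT values. Only 8 of them passed the filter on low values, so the share of 22.2% among the genes tested is not a like comparison. *Camp* and *Retnlg* passed the filter through the group where they were high, and *Cxcr2* was below the filter's linear level of 10 in all 8 libraries here. Neither the tests of these genes nor a count over this list is given as support. The list's summed linear level was 588.6 to 818.5 in the WT and 2398 to 2853 in the dKO libraries. Most of the WT sum was *Mmp8*, at 8.93 to 9.21 on the log2 scale, so the sums understate the rises of other members. The list members *Ly6g*, *Elane*, *Mpo*, and *Prtn3* were below the filter level in both groups, at most 0.60 for *Ly6g* and 1.80 for *Mpo* on the log2 scale. *Mmp8* differed by 0.44 (adjusted p = 0.0553). The macrophage markers summed to 515600 to 566000 in WT and 451200 to 475300 in dKO, with *Lyz2* lower (-0.45, adjusted p = 4.07e-09), *Adgre1*, the F4/80 antigen, slightly higher (0.14, adjusted p = 0.0273), and *Cd68* overlapping (0.02, adjusted p = 0.837), and none of the 10 was called. The part of cells other than macrophages in the results above was not tested.

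Other increases belonged to other groups. *Ctse*, which encodes cathepsin E, was at 5.43 to 5.92 in WT and 9.50 to 9.89 in dKO (4.08, SE 0.14, adjusted p = 3.79e-31), and *Chil3*, a chitinase-like lectin, at 4.97 to 5.64 and 8.61 to 8.87 (3.56, SE 0.20, adjusted p = 2.38e-21). *Gm4951* (2.38, adjusted p = 1.71e-08) and *G530011O06Rik* (2.34, adjusted p = 3.81e-10) were higher too, after differences of 1.85 and 1.69 without LPS, and the test of the change did not pass for either (adjusted p = 0.461 and 0.243). Among phagocytic, scavenger, and complement genes 28 were tested, 3 were called higher and 2 lower, and members called in either direction also differed without LPS. *Fcgr4*, an Fc receptor, differed by 1.42 at 2 h and 1.35 without LPS, *Itgax*, the gene of CD11c, by -1.63 and -1.49, and *Axl*, a receptor of apoptotic cells, by -1.28 and -1.26. *Cfb*, complement factor B (1.15, adjusted p = 8.99e-06), was not called without WT replicate 7 (0.99), and *Trem1*, a receptor that amplifies inflammation, was 1.11 higher (adjusted p = 1.43e-11). The C1q gene *C1qb* was lower by less than 2-fold (-0.49, adjusted p = 3.24e-09), and *Cd36* overlapped (-0.20, adjusted p = 0.346).

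The marker lists of further cell types had few tested members. *Hdc*, the histamine-forming enzyme of mast cells and basophils and the only tested member of 6, was at 6.44 to 6.73 in WT and 8.06 to 9.0 in dKO (1.79, adjusted p = 1.07e-07). Of 8 dendritic cell markers 4 were tested, with a median of -0.00. The transcription factor gene *Zbtb46* was at 4.93 to 5.33 in WT and 3.48 to 3.93 in dKO and was called lower (-1.44, adjusted p = 2.27e-13), *Ccr7*, a chemokine receptor, was lower by less (-0.29, adjusted p = 0.0131), *Xcr1*, another, was higher by less than 2-fold with overlap (0.28, adjusted p = 0.0328), and 1 did not pass. Of the 4 untested markers 3 had all dKO values above all WT values, at levels of at most 2.9. The erythroid and megakaryocyte markers summed to linear levels of 1904 to 2768 in WT and 3518 to 4412 in dKO, of which nearly all was *Pf4*, platelet factor 4 (0.84, adjusted p = 0.00037), and the hemoglobin genes were below 0 on the log2 scale. The lymphocyte markers summed to 63.99 to 86.85 and 107.4 to 123.2, with *Cd79b*, a B cell receptor subunit, as the only tested member (0.66, adjusted p = 0.00278) and the T cell genes *Cd3e* and *Cd3g* below 0. The stromal markers summed to 61 to 81.02 and 60.5 to 77.33. Their part in the results was not tested. Of the osteoclast markers, *Dcstamp*, a fusion protein, fell by 1.63 (adjusted p = 1.44e-09), *Ctsk*, cathepsin K, was 1.34 higher (adjusted p = 4.84e-12), and *Mmp9* was lower (-1.08, adjusted p = 0.0101) but not called without WT replicate 6 (-0.95) or WT replicate 7 (-0.87). ETS factors other than the TCFs had 1 call among 14, *Spic*, a factor of red pulp macrophages, at 4.19 to 4.76 in WT and 5.41 to 6.04 in dKO (1.12, adjusted p = 1.12e-07), which was not called without dKO replicate 1 (0.98). *Spi1*, the gene of PU.1, was slightly lower (-0.33, adjusted p = 7.74e-08), and *Etv3* did not pass (-0.10, adjusted p = 0.295).

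How far these differences preceded LPS was asked with the libraries without LPS. Of the 114 genes called lower at 2 h, 73 were lower past the adjusted p without LPS, as were 24.6% of all genes, and 34 met both criteria there, as did 0.463%, and of the 134 called higher, 113 were higher past the adjusted p without LPS, as were 27.2% of all genes, and 68 met both criteria, as did 0.774%. The median difference of the genes called lower went from -0.57 to -1.30, and that of the genes called higher from 1.02 to 1.29. The change in the difference was tested itself: subtracting the difference without LPS from that at 2 h gave 53 calls below 0, 0.446% of the genes tested, and 19 above 0, 0.16%. Among the genes called lower at 2 h, 61 had moved further from 0 past the adjusted p, which 8.76% of all genes passed in that direction, and none back towards it. Among those called higher 36 had moved further, beside 8.17% of all genes, and 1 back. These genes were chosen for the size of their difference at 2 h, which pushes both the medians and the changes away from 0, so these values are a description and nothing is read from them.

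**Figure D3:**
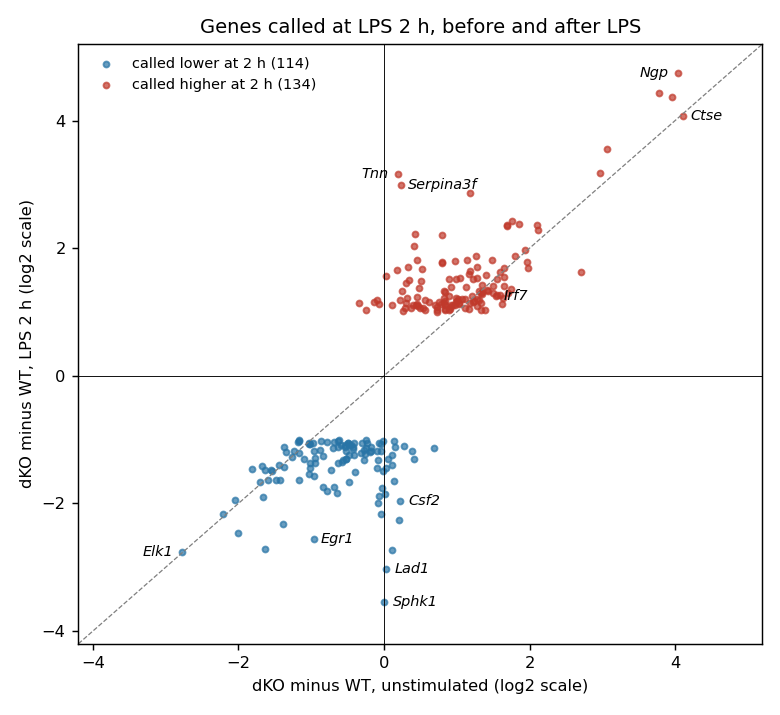
Each point is a gene called at 2 h of LPS, placed by its difference between dKO and WT BMDMs without LPS and at 2 h, both on the log2 scale, with a dashed line where they are equal. Genes such as *Ctse* (4.11 and 4.08) and *Elk1* (-2.78 and -2.76) lie on the line, and *Sphk1* (0.00 and -3.54), *Lad1* (0.02 and -3.04), and *Tnn* (0.19 and 3.17) lie on the vertical axis or near it.

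The largest changes of that kind were those of *Sphk1* (-3.54, adjusted p = 9.9e-12) and *Lad1* (-3.06, adjusted p = 3.2e-08), neither of which had differed without LPS. In WT cells *Sphk1* had risen by 5.25 log2 units at 2 h over the cells without LPS and in dKO cells by 1.71, and *Lad1* had risen by 4.42 and 1.37. Without LPS the mean levels of *Sphk1* and *Lad1* were below the filter's linear level of 10 in both genotypes. A difference there could be missed, and the sizes of these rises are uncertain. *Olr1* followed (-2.47, adjusted p = 2.4e-09), with rises of 5.24 in WT and 2.77 in dKO, and then *Csf2* (-2.18, adjusted p = 2.4e-06), with rises of 2.78 and 0.61. *Tnfsf4* (-1.90, adjusted p = 5.4e-06) and *Col27a1*, a fibrillar collagen gene (-1.87, adjusted p = 0.014), complete the 6 largest, and the change of *Col27a1* did not pass the test without WT replicates 5 and 6 together (-1.61, adjusted p = 0.0898). At 2 h *Col27a1* was at 9.57, 9.41, 9.38, and 8.19 in WT and at 7.29, 7.56, 6.73, and 7.53 in dKO (-1.86, adjusted p = 0.000171).

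In the other direction *Tnn*, the gene of tenascin N, led (2.98, adjusted p = 7.8e-06). It was at 6.30, 6.43, 4.75, and 6.63 in WT and at 9.49, 9.66, 8.81, and 8.83 in dKO at 2 h, after rises over the cells without LPS of 3.65 and 6.63. Its mean levels without LPS were below the filter's linear level of 10 in both genotypes, so the sizes of these rises and of the change are uncertain. The serine protease inhibitor *Serpina3f* was at 5.75, 5.55, 5.78, and 5.51 in WT and at 9.33, 8.30, 7.80, and 9.10 in dKO (2.98, SE 0.41, adjusted p = 3.6e-08), and its neighbour in sequence *Serpina3g* was 2.86 higher (SE 0.40, adjusted p = 3.76e-08). These relatives are alike enough that reads may be split between them. The change from the cells without LPS was 2.75 for *Serpina3f* (adjusted p = 0.00028) and 1.69 for *Serpina3g* (adjusted p = 0.023). The change of *Serpina3g* was not called without dKO replicate 1 (1.39) or without WT replicates 5 and 6 together (1.71, adjusted p = 0.0575).

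*Tgtp1*, an interferon-inducible GTPase with a near-identical copy, changed by 1.80 (adjusted p = 0.027). This change did not pass without dKO replicate 1 (1.69), without dKO replicate 4 of the cells without LPS (1.66), or without WT replicates 5 and 6 together (1.84, adjusted p = 0.064). *Thbs1*, or thrombospondin 1, was at 8.88 to 9.61 in WT and 10.71 to 10.84 in dKO at 2 h (1.56, adjusted p = 3.28e-09). It had fallen with LPS in WT cells, with a response of -0.68, and risen in dKO cells, with a response of 0.84. *Sgk1*, a kinase of the glucocorticoid and growth factor responses, was lower than in WT without LPS (-0.34, adjusted p = 9.7e-05) and 1.14 above it at 2 h (SE 0.08, adjusted p = 3.96e-17), a change of 1.49 (adjusted p = 6.7e-15).

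**Figure D4:**
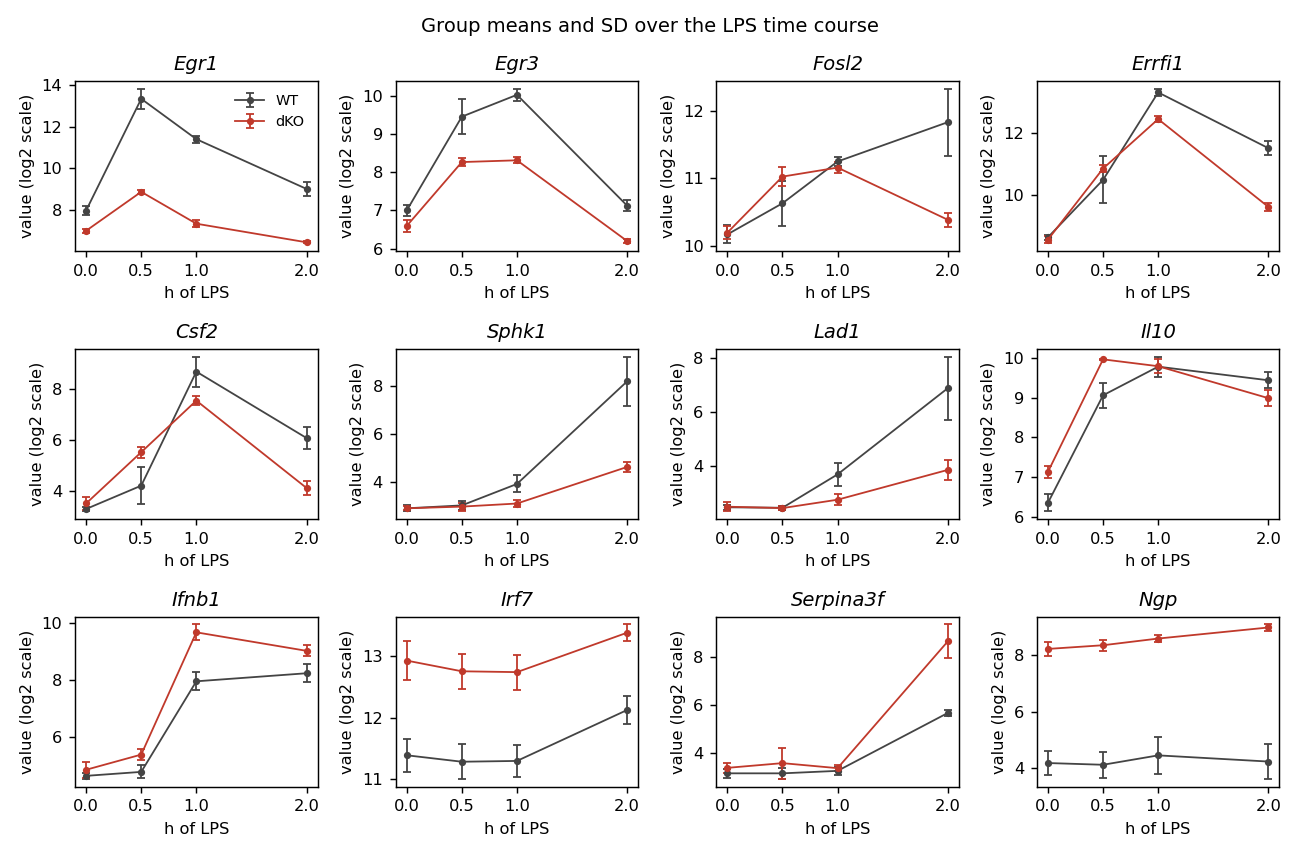
Points are group means and bars are SDs on the log2 scale in WT (dark, n = 6, 6, 6, and 4) and dKO (red, n = 4 at each time) BMDMs at 0, 0.5, 1, and 2 h of LPS. *Egr1* was lower at all times, the differences of *Sphk1*, *Lad1*, and *Fosl2* were largest at 2 h, and *Irf7* and *Ngp* were higher at all times.

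Against 1 h of LPS, 20 genes had a difference that moved down by 2 h, 0.168% of the genes tested, and 19 one that moved up, 0.16%. *Egr1* was among the latter: it differed by -4.04 at 1 h (adjusted p = 4.6e-29), so that its difference shrank by 1.49 by 2 h, when its WT level had dropped from 11.4 to 9.02. *Egr3* differed by -1.72 at 1 h and -0.93 at 2 h. *Sphk1* and *Lad1*, by contrast, differed by -0.81 and -0.94 at 1 h and then moved further, by -2.73 and -2.09. *Fosl2* had not differed at 1 h (-0.09, adjusted p = 0.56), and neither had *Lif* (0.03, adjusted p = 0.88) or *Ptger2* (0.04, adjusted p = 0.78). *Ifnb1* was 1.73 higher at 1 h (adjusted p = 2e-14) and 0.79 higher at 2 h.

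Genes that LPS induces were chosen in libraries that the 2 h comparison does not use, as those at least 2-fold higher in WT cells at 1 h than without LPS. The choice is not fully independent. Same-numbered WT libraries at 1 h and 2 h correlated (0.247 to 0.555), which can push the 2 h differences of genes chosen in this way down. Of these 380 genes, 3.2% of those tested, 43 were called lower at 2 h, or 11.3% beside 0.959% of all genes, and 4 were called higher, or 1.05% beside 1.13%. By the adjusted p alone 198 were lower and 39 higher. Their median difference was -0.26 at 2 h and 0.03 without LPS. The value without LPS uses WT libraries that also entered the choice, which pushes it up, so nothing is read from it. With a 4-fold rise as the rule, 20 of 150 genes were called lower and 1 higher, whereas the 835 genes at least 2-fold higher at 2 h in *Map3k8* D270A cells held 42 called lower and 49 called higher. Of the 112 genes at least 2-fold lower in WT cells at 1 h, 0.942% of those tested, 2 were called higher and none lower.

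The 10 genes most raised in WT cells at 1 h had differences below 0 at 2 h. *Csf2* and *Olr1* were called, as given above. *Il1a*, *Il1b*, *Cxcl1* (-0.46, adjusted p = 0.0147), *Cxcl2* (-0.89, adjusted p = 5.18e-08), *Tnfsf9*, the 4-1BB ligand (-0.83, adjusted p = 2e-05), and *Socs3*, a cytokine signalling inhibitor (-0.73, adjusted p = 1.36e-05), passed the adjusted p without overlap between groups. *Mir155hg*, the host gene of miR-155, was at 10.39, 10.34, 10.33, and 9.43 in WT and at 8.60, 9.77, 9.05, and 9.48 in dKO. Its groups overlapped at WT replicate 7, its difference was -0.90 (adjusted p = 0.0104), and it was called without WT replicate 7 (-1.13) or dKO replicate 2 (-1.08). *Ptgs2*, the inducible cyclooxygenase, did not pass (-0.34, adjusted p = 0.219).

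**Figure D5:**
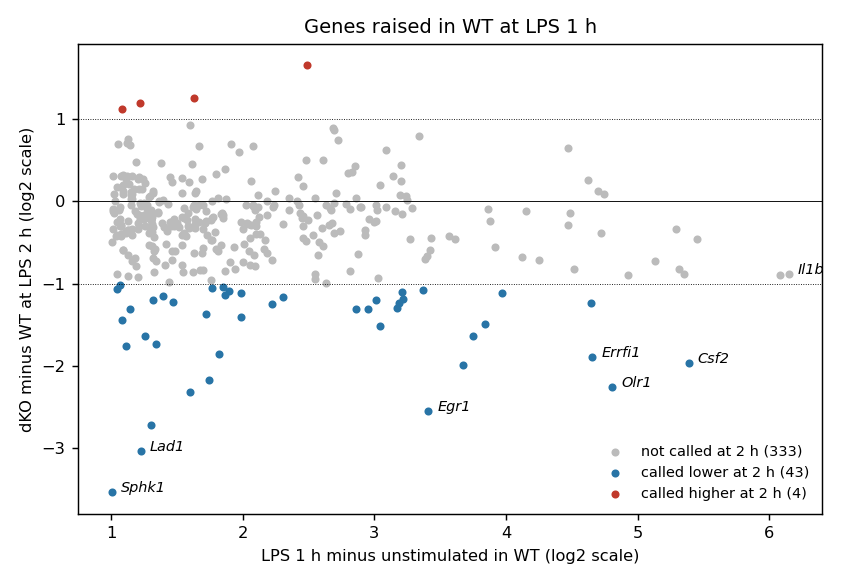
Each point is one of the 380 genes raised at least 2-fold in WT BMDMs at 1 h of LPS, placed by that rise and by its difference between dKO and WT BMDMs at 2 h, both on the log2 scale, with dotted lines at -1 and 1. The 43 genes called lower include *Sphk1* (rise 1.01) and *Csf2* (rise 5.39), and 4 genes were called higher.

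The *Map3k8* D270A libraries at 2 h were compared with the same 4 WT libraries, so both sets of differences share their controls and are given side by side only. *Sphk1* differed by -3.54 in dKO and -3.78 in *Map3k8* D270A cells, *Errfi1* by -1.89 and -2.41, *Fosl2* by -1.44 and -1.49, *Egr1* by -2.55 and -1.81, and *Csf2* by -1.96 and -1.22. *Il10* differed by -0.45 and -2.57, and *Il1b* by -0.88 and -2.18. *Ifnb1* was higher by 0.79 and 1.00, *Sgk1* by 1.14 and 1.18, and *Tnn* by 3.17 and 1.98. *Ngp* differed by 4.74 and 0.01, *Ctse* by 4.08 and -0.10, and *Irf7* by 1.26 and -0.01. The interferon-stimulated list had medians of 0.68 and 0.10, with 6 of 50 higher past the adjusted p in *Map3k8* D270A cells, beside 14.6% of all genes, and the cholesterol list 0.72 and -0.06.

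Called genes were also looked for near the targeted loci, in the positions of GRCm38.p6, which were found for 11387 tested genes by symbol and 455 by synonym. Within 5 Mb of *Elk1*, chromosome X from 20933395 to 20950608, 1 of 20 tested genes was called, *Timp1*, the gene of a metalloproteinase inhibitor 59 kb away (-1.30, SE 0.18, adjusted p = 3.48e-08), which was at 7.37, 7.37, 8.14, and 7.40 in WT and at 6.26, 6.48, 6.29, and 6.06 in dKO. Within 5 Mb of *Elk4*, chromosome 1 from 132007577 to 132026448, 5 of 68 were called. *Mfsd4a*, a transporter gene whose annotation overlaps that of *Elk4*, fell by 1.22 (adjusted p = 8.7e-16) and by as much without LPS (-1.17). *Ctse* lies 332 kb away, *Cd55*, a complement regulator (1.52, adjusted p = 1.91e-16), 1543 kb, *Chil1*, a chitinase-like gene that passed the filter through its dKO values (1.82), 2156 kb, and *Lad1* 3792 kb. On the whole of chromosome 1, 3.48% of 690 tested genes were called and on chromosome X 1.83% of 383, beside 2.09% of all genes. Sequence linked to the deleted alleles was not tested as a part of these differences.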

How the data were processed

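Per the labels and the methods, the authors sequenced strand-specific, single-end libraries, aligned reads with STAR to mm10, and estimated counts per RefSeq gene with RSEM. The submitters' processing notes name RSEM 1.2.29, STAR 2.5.1b, and DESeq2 1.10.1. The deposited values are normalized, on a log2 scale, and run from -2.4 to 19.81. No source used here names the transformation. It may have drawn differences together, so a threshold at the natural logarithm of 2 was tried. A single value above 25, in a library outside the comparison, was set to missing. The table does not give the depth of each library.

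Values were compared with limma 3.58.1 (R 4.3.3) by group means over 62 libraries (WT, *Map3k8* D270A, and dKO), which share 1 estimate of the spread, without a trend, for 11884 of 18098 genes with a linear value (2 to the power of the deposited value) of at least 10 in 4 libraries. P values were adjusted by Benjamini-Hochberg over all genes tested. The test was checked on simulated data. The members, gene lists, and tests were chosen with earlier results of these data known. Named genes are the TCFs and *Srf*, the 12 largest called changes in each direction without overlap between groups and with a higher mean of at least 6, up to 6 called members and up to 3 abundant uncalled members of each list, the 10 genes most raised in WT at 1 h, up to 6 called changes against the cells without LPS in each direction, and called genes within 5 Mb of *Elk1* or *Elk4*. Alternatives were other sets of libraries, filters, scalings, variance priors, thresholds, left-out replicates, and a replicate block. One gene that this rule names is not reported here.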

Additional observations from a re-analysis of the deposited data

Results flagged for a closer look

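In 17 of 232 groups of 4 libraries, 7.33%, 1 library stood apart from the other 3 by a gap that, as a share of the group's whole range, passed Dixon's critical value, which chance does in about 1 in 20 groups. WT replicate 7 was that library for *Ngp* (0.883 of the range), *S100a9* (0.957), *S100a8* (0.951), *Retnlg* (0.842), *Irf7* (0.894), *Isg20* (0.946), *Nfkbid* (0.842), *Mir155hg* (0.937), and *Col27a1* (0.862). WT replicate 6 stood apart for *Errfi1* (0.872), *Flna* (0.963), and *Timp1* (0.961), WT replicate 5 for *Elk4* (0.952), and WT replicate 4 for *Ctsk* (0.833). Among dKO libraries, replicate 1 stood apart for *Serpina3g* (0.911), replicate 3 for *Ctsk* (0.913), and replicate 4 for *Nfkbia* (1). The shares were computed from rounded values. For *Nfkbia* the dKO values ran only from 14.41 to 14.43, so its share of 1 rests on ties made by rounding.

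The difference between genotypes at 2 h was unlike that without LPS, by the test of the change, for 25 named genes. It moved down for *Sphk1* (-3.54), *Lad1* (-3.06), *Olr1* (-2.47), *Csf2* (-2.18), *Tnfsf4* (-1.90), *Col27a1* (-1.87), *Arc* (-1.82), *Errfi1* (-1.82), *Clcf1* (-1.78), *Egr1* (-1.58), *Fosl2* (-1.47), *Cxcl3* (-1.47), *Zbtb46* (-1.35), *Lif* (-1.26), *Il10* (-1.23), *Il1a* (-1.19), *Lrrc32* (-1.09), and *Ptger2* (-1.03). It moved up for *Tnn* (2.98), *Serpina3f* (2.75), *Tgtp1* (1.80), *Serpina3g* (1.69), *Thbs1* (1.53), *Sgk1* (1.49), and *Spic* (1.01). *Il10* was higher in dKO cells without LPS (0.78) and lower at 2 h (-0.45). The change of *Lrrc32* was not called without WT replicate 8 of the cells without LPS (-0.94), and those of *Ptger2* and *Spic* lost their calls without any of several libraries, down to -0.93 without dKO replicate 3 of the cells without LPS and 0.87 without dKO replicate 1 at 2 h.

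Against 1 h of LPS, the difference moved down by 2 h for *Sphk1* (-2.73), *Lad1* (-2.09), *Zbtb46* (-1.39), *Fosl2* (-1.35), *Lif* (-1.14), *Ptger2* (-1.11), and *Errfi1* (-1.03). It moved up for *Serpina3f* (2.87), *Tnn* (2.41), *Serpina3g* (2.00), *Tgtp1* (1.74), *Egr1* (1.49), and *Thbs1* (1.1). The change of *Errfi1* from 1 h was not called without WT replicate 6 (-0.92) or dKO replicate 3 (-0.99) at 2 h, or without WT replicate 8 or dKO replicate 4 at 1 h (both -0.99), that of *Thbs1* not without WT replicate 4 (0.996), and that of *Fosl2* not without WT replicates 5 and 6 together (-0.99). The change of *Tgtp1* from 1 h did not pass the test when any of several single libraries was left out, with values from 1.61 to 1.80.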

How the results depend on the processing

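The values rest on an unstated transformation and a depth per library that the table does not give. With a 1.5-fold threshold 401 genes were called lower and 490 higher at 2 h, 208 and 102 by the change from the cells without LPS, 100 and 84 by the change from 1 h, 99 and 17 of the LPS-induced genes, and 2 and 8 genes near *Elk1* and *Elk4*. With the natural logarithm of 2 these were 270 and 324, 129 and 67, 59 and 50, and 80 and 11. By the adjusted p alone they were 2750 and 3291, 1041 and 971, 773 and 694, 198 and 39, and 12 and 39 near the targets. A linear value of at least 50 left 3 calls near *Elk4*. Of the genes raised 4-fold, 20 were called lower and 1 higher, and of those raised in *Map3k8* D270A cells 49 higher.

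Leaving out 1 library gave 101 to 143 lower and 123 to 141 higher calls at 2 h, 45 to 70 and 17 to 22 for the change from the cells without LPS, 18 to 25 and 15 to 21 for that from 1 h, 39 to 48 and 3 to 5 among LPS-induced genes, 1 to 1 near *Elk1*, and 5 to 6 near *Elk4*. Uncalled genes near 0 changed sign: *Mcl1* ran from -0.0721 to 0.0252, *Atf3* from -0.00973 to 0.0525, *Il1rn* from -0.358 to 0.0149, *Srebf2* from -0.0704 to 0.0456, *Cd68* from -0.0549 to 0.0582, and *Egr2* from -0.0851 to 0.0128. *Ccl4* was at 0.0131 after quantile normalization. Without WT replicates 5 and 6, chosen after seeing the data, *Zfp36* was at 0.0417, *Il1rn* at 0.150, and *Etv3* at 0.0189. The causes were not tested.

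By the rule used, the replicate numbers were not treated as pairs in the main fit. Still, 7 of 8 same-numbered pairs correlated above 0.1, both with the cells without LPS (-0.0454 to 0.473) and with 1 h (0.0491 to 0.555). All 4 WT pairs and 3 of 4 dKO pairs did so, and 5 of 8 libraries correlated best with their own number at either time. With a replicate block 101 genes were called lower and 137 higher at 2 h, 50 and 22 by the change from the cells without LPS, and 20 and 22 by that from 1 h. With the block *Amd2* (adjusted p = 0.0745), *Rn45s* (adjusted p = 0.0895), and the change of *Ptger2* from the cells without LPS (-0.993) were not called, and *Dusp1* was (-1.04).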
